A study of Mus musculus with 4 samples.

Results

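The cytosolic chaperones and the cytosolic chaperonin were described here as 34 genes of the 32286 rows in the deposited count tables, chosen by symbol and not by any measured value. They cover the HSP90 proteins with their co-chaperones, the HSP70 and HSP110 proteins, the J-domain proteins, the heat shock transcription factors with BAG3, and the 8 subunits of the chaperonin. Hspb1, a small heat shock protein, and Hspd1 and Hspe1, which encode the chaperonin of mitochondria and so lie outside the cytosol, were in the list as well. Droplet-based single-nucleus RNA sequencing was applied to primary motor cortex from C57BL/6N mice, with 4 libraries, 1 per group. The ad lib sleep library came from mice that slept freely, and the sleep deprivation library from mice kept awake by gentle handling. The other two came from cortex given AAV8-hSyn-FLAG-SIK3(WT) or AAV8-hSyn-FLAG-SIK3(Ex13del) locally, and carry wild-type SIK3, a salt-inducible kinase, or SIK3 without exon 13, which the design text calls a gain-of-function mutant. The human synapsin promoter (hSyn) of both vectors drives expression in neurons, and no empty-vector group was analysed here. The number of mice behind each library, their age and sex, and the length of sleep deprivation are not given in the sources used here.

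Molecular chaperones hold, fold and refold proteins with the energy of ATP. HSP70 binds short unfolded stretches, J-domain proteins bring clients to it and start its ATP cycle, HSP110 proteins recharge it with ATP, and HSP90 takes over clients such as kinases and steroid receptors late in folding. The ring-shaped chaperonin, also called TRiC or CCT, encloses actin, tubulin and other proteins, and the heat shock factors switch on many chaperone genes when unfolded proteins accumulate. Neurons keep high levels of the constitutive members HSC70 (Hspa8) and HSP90, and HSC70 also strips clathrin from synaptic vesicles.

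The libraries held 43655557 to 54070503 UMIs (unique molecular identifiers, which count RNA molecules) in 5944 to 9438 barcodes, and 5302 to 8242 nuclei per library were kept. Clusters were named by marker lists, so each class name stands for nuclei that resemble that type, and the 34 genes took no part in clustering. Excitatory neuron-like nuclei numbered 3691 after ad lib sleep, 1862 after sleep deprivation, 2703 with wild-type SIK3 and 2123 with SIK3 without exon 13. Their median depth was 7408, 13795.5, 9148 and 9993 UMIs in that order. The 10 excitatory markers summed to 1956 to 2077 CPM there (UMI counts scaled to the same total in every class and library), against 569 to 673 in inhibitory neurons and 671 to 835 in oligodendrocytes. In astrocytes they summed to 2062 to 2553 CPM, so this sum alone does not set astrocytes apart from excitatory neurons. The list shares Rorb with the astrocyte list, and the part of Rorb in the astrocyte sum was not tested. No defining marker was at 0. Sleep deprivation stood apart in an unnamed cluster of shallow nuclei (median of 941 to 1291.5 UMIs), which took 28.5% of its kept nuclei against 8.32% after ad lib sleep and 12.4% and 13% with the AAVs. UMIs of the vector feature were 0 in both libraries without AAV, and 3441 and 5090 with wild-type and exon 13 deleted SIK3. Between 9 and 14 cell barcodes were shared by any pair of libraries.

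Heat shock factors bind heat shock elements, inverted repeats of the letters GAA, and the promoters below are shown because these elements are the best known shared feature of the family. RefSeq (GRCm38.p6) gave the 250 bases before the transcription start of 27025 genes. A pair of repeats, GAANNTTC or TTCNNGAA, stood in 13% of all these windows, and in 8 of the 29 members with a window (27.6%): Cct5, Dnaja1, Dnajb6, Hspa1a, Hspa1b, Hspb1, Hspe1 and Hsph1. Both motifs are their own reverse complement, so a match counts for either strand. A run of 3 repeats, GAANNTTCNNGAA or TTCNNGAANNTTC, contains the pair, reads as the other on the opposite strand, and stood in 0.403% of all windows and in those of Dnajb6 and Hspe1. Of 73 related chaperone genes with a window, 9 held the pair and 0 the run of 3. Hsp90aa1, Hsp90ab1, Hspa8, Hsf1 and Cct4 were not matched. A match of letters is no more than a description of the window. Below, written 5′ to 3′ on the gene's strand with the elements in capitals, are the windows of Hsph1 (chr5:149636351-149636380, minus strand) and Dnaja1 (chr4:40722333-40722362, plus), which had the highest sleep deprivation ratios among measured genes that hold an element; of the stress-inducible Hspa1a (chr17:34972217-34972296, minus) and Hspb1 (chr5:135887786-135887865, plus); and of Hspe1 (chr1:55088058-55088087, plus), which holds the run of 3. They were picked after the values were seen, and those that overlap an annotated exon are limited to 30 bases. Windows were placed by RefSeq starts, which can differ from the GENCODE starts given elsewhere. By GENCODE, the Dnaja1 window lies within that gene, which begins at 40722150. The Hsph1 window overlaps its gene, which ends at 149636376, and the Hspe1 window lies within Hspd1.
Hsph1: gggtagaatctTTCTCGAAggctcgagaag
Dnaja1: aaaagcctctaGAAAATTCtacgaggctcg
Hspa1a: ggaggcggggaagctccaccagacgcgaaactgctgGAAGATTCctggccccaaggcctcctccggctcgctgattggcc
Hspb1: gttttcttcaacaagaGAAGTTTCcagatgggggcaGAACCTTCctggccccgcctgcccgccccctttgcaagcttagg
Hspe1: gTTCTAGAACCTTCCGGAAggccccgcgcg
The window of Hspa1b (chr17:34959299-34959378, minus) differed from that of Hspa1a at 0 of 80 bases. These neighbouring genes encode nearly the same protein, so how their reads were divided is uncertain. Hspd1 and Hspe1 start close together on opposite strands of chromosome 1 (55077835 to 55088243 and 55088132 to 55091307, mm10, GENCODE vM21), and whether counting used strand is not given in the sources used here.

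The first comparison asked which chaperone genes differ with sleep loss, and excitatory neurons were taken first. In excitatory neurons, HSP90, HSP70, HSP110 and J-domain genes were mostly higher in the sleep deprivation library than in that of ad lib sleep, while the chaperonin subunits and the heat shock factors lay close to equal. For each library, the UMIs of all nuclei in a class were added up and scaled to CPM, which leaves 1 value per group. A ratio of 2 libraries therefore has no replicate check and no p-value, and its 95% interval covers counting error only. A group and its library cannot be told apart. A gene counts as measured at a mean of at least 5 CPM over both libraries and as past the fold when at least 25% higher or at least 20% lower than the reference.

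Of the 34 genes, 30 were measured, 24 were higher and 6 lower after sleep deprivation, and the median log2 ratio (with 1 CPM added) was 0.15, against -0.03 over the 11998 genes measured. Past the fold were 5 members, all higher: Hsph1, Hsp90ab1, Hspa8, Stip1 and Dnaja1. Among all measured genes, 7.33% passed the fold upward and 12.8% downward. Under TMM scaling, which sets the middle of the genes to equal, the split of all genes was 10.8% and 9.67%, and 6 members were past the fold upward and 0 downward. The interval lay above 1 for 16 members, where all genes gave 22.7%, and below 1 for 0 members, where all genes gave 30.2%, and it held 1 for 14. These intervals narrow with the level of a gene. The sleep deprivation library had the highest of the 4 levels in 15 of the 30 members and in 26.4% of all measured genes.

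**Figure D1:**
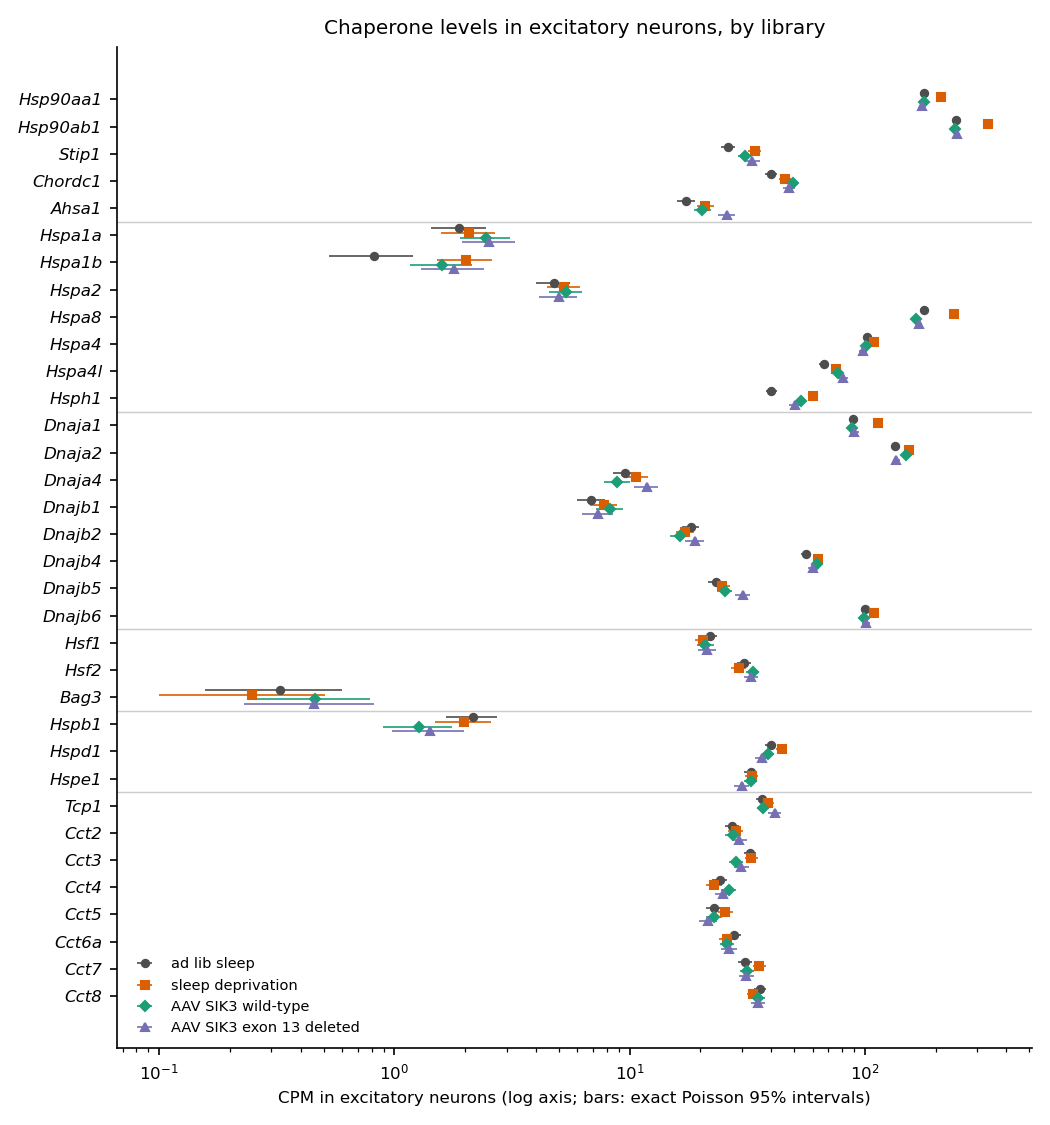
Level of each of the 34 genes in excitatory neurons of each library, in CPM on a log axis, with exact Poisson 95% intervals as bars and grey lines between role groups. For Hsp90ab1, Hspa8 and Dnaja1 the sleep deprivation square lies right of 3 other symbols that sit together, while for Hsph1 the ad lib sleep circle lies left of the other symbols.

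HSP90 binds clients in a nearly mature state, and Hsp90ab1 (chromosome 17, 45567775 to 45573271, mm10) encodes its constitutive form. Its level was 244 CPM after ad lib sleep, 335 after sleep deprivation, 242 with wild-type SIK3 and 248 with SIK3 without exon 13. The sleep deprivation library was the high one and the other three lay close together, and the ratio to ad lib sleep was 1.37 (95% interval 1.33 to 1.42). Hsp90aa1 (chromosome 12, 110690605 to 110702728), the stress-inducible form, was at 178, 211, 179 and 176 CPM, again with sleep deprivation as the high library and a smaller ratio of 1.18 (1.14 to 1.22). Stip1, which bridges HSP70 and HSP90, had a ratio of 1.30 (1.18 to 1.43). It was at 26.2, 34.0, 31.0 and 33.3 CPM, so ad lib sleep was the low library and the exon 13 deleted library was close to sleep deprivation. Ahsa1, which speeds the ATP cycle of HSP90, was at 17.4, 21.0, 20.4 and 25.9 CPM (ratio 1.21, 1.07 to 1.36), and Chordc1, an HSP90-binding protein, at 39.9, 45.8, 49.4 and 47.6 CPM (1.15, 1.06 to 1.24). All 5 genes of the HSP90 group were higher after sleep deprivation, 2 of them past the fold, with a median log2 ratio of 0.26.

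Hspa8 (chromosome 9, 40800984 to 40810087), the constitutive HSP70, was at 179, 240.4, 166 and 170.3 CPM, with sleep deprivation apart from the other three and a ratio of 1.34 (1.30 to 1.39). Hsph1 (chromosome 5, 149614287 to 149636376) encodes HSP110, which exchanges the nucleotide of HSP70 and helps to take aggregates apart. Its levels were 40.1 and 60.3 CPM after ad lib sleep and sleep deprivation, a ratio of 1.5 (1.40 to 1.62), and 53.5 and 50.4 CPM in the AAV libraries. For this gene the ad lib sleep library was low rather than the sleep deprivation library alone being high. Hspa4, another HSP110-type protein, was at 102, 109, 101 and 98.6 CPM (1.07, 1.02 to 1.13), and its relative Hspa4l was at 67.0, 75.5, 77.2 and 80.8 CPM (1.13, 1.06 to 1.20). Hspa2 was at about 5 CPM in every library with a ratio of 1.11 (0.874 to 1.40). The heat-inducible Hspa1a and Hspa1b were below the 5 CPM floor. Hspa1a was at 1.89, 2.08, 2.44 and 2.54 CPM, and Hspa1b, with 25 UMIs after ad lib sleep and 57 after sleep deprivation, was at 0.816, 2.01, 1.59 and 1.79 CPM. The Hspa1b ratio was 2.47 (1.52 to 4.13), and the ad lib sleep library was again the low one of 4.

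Among J-domain proteins, Dnaja1 (chromosome 4, 40722150 to 40737149), a farnesylated partner of HSC70, was at 89.1, 114, 88.1 and 90.4 CPM. Sleep deprivation was the single high library, with a ratio of 1.28 (1.22 to 1.35). Dnaja2, its close relative, was at 134, 154, 149 and 136 CPM (1.15, 1.10 to 1.20), and Dnajb6, which restrains aggregation of polyglutamine proteins, at 101, 109.8, 99.5 and 102 CPM (1.09, 1.04 to 1.15). Dnajb4 had a ratio of 1.13 (1.06 to 1.21), and the intervals of Dnaja4, Dnajb1, Dnajb2 and Dnajb5 held 1. In this group 7 of 8 genes were higher, 1 past the fold, with a median of 0.15.

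The heat shock factors were level. Hsf1, the main activator of the heat shock response, was at 21.9, 20.6, 21.0 and 21.4 CPM (0.941, 0.841 to 1.05), and Hsf2 at 30.7, 29.1, 33.4 and 33.0 CPM (0.948, 0.862 to 1.04). Both intervals held 1. Bag3, an HSF1 target that couples HSP70 to autophagy, had 10 and 7 UMIs in the ad lib sleep and sleep deprivation libraries and stayed under 0.5 CPM in all of them, too few to compare.

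The chaperonin subunits lay close to equal. After sleep deprivation 5 of 8 were higher and 3 lower, 0 were past the fold, and the median log2 ratio was 0.03. Cct7 had the highest ratio, at 35.7 against 31.0 CPM (1.15, 1.05 to 1.26). Cct8, at 33.6 against 36.0 CPM (0.936, 0.857 to 1.02), and Cct6a, at 26.0 against 27.7 CPM (0.936, 0.847 to 1.03), had the lowest, with intervals that held 1. Tcp1, the alpha subunit, was at 36.5, 39.0, 37.0 and 41.5 CPM. A chaperonin ring holds 1 copy of each subunit, and here their ratios spanned 0.936 to 1.15. Of the mitochondrial pair, Hspd1 was at 39.8, 44.3, 38.7 and 36.4 CPM (1.11, 1.03 to 1.21) and Hspe1 at 32.7, 33.1, 32.7 and 29.96 CPM (1.01, 0.925 to 1.11). Hspb1 stayed at 1.27 to 2.15 CPM.

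**Figure D2:**
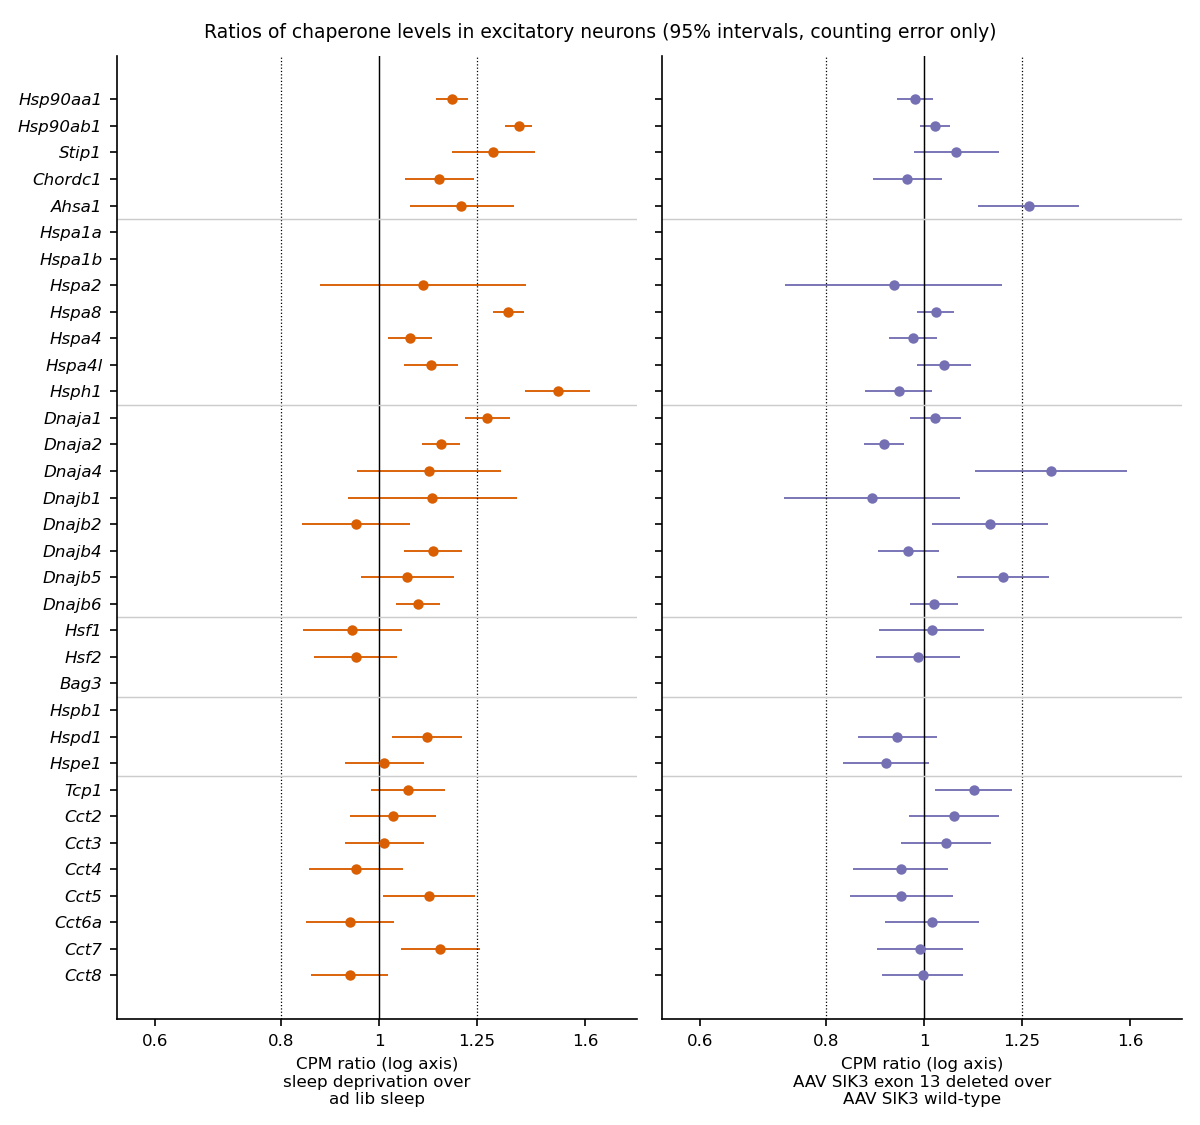
CPM ratios in excitatory neurons on a log axis, sleep deprivation over ad lib sleep on the left and SIK3 without exon 13 over wild-type SIK3 on the right, with exact conditional 95% intervals and dotted lines at the fold limits (4 genes under 5 CPM are left blank). On the left 5 of 30 points lie past the upper line and 0 past the lower, while on the right 2 points lie past the upper line and the rest scatter on both sides of 1.

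The choice of reference mattered. With the wild-type SIK3 library as the reference, 20 of 30 members were higher after sleep deprivation and the median was 0.06. Past the fold were then 3 members upward, where all genes gave 6.96%, and 0 downward, where all genes gave 8.28%. Hsp90ab1 (1.39, 1.34 to 1.43), Hspa8 (1.45, 1.40 to 1.51) and Dnaja1 (1.29, 1.23 to 1.36) were the 3. Hsph1 was at 1.13 (1.05 to 1.21) and Stip1 at 1.10. Both comparisons use the same sleep deprivation library, and the wild-type SIK3 library also differs by local administration of a virus.

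The related list held 90 further chaperones and co-chaperones of the endoplasmic reticulum, mitochondria and cytosol, of which 76 were measured in excitatory neurons. After sleep deprivation 42 were higher, 7 were past the fold upward and 2 downward, with a median log2 ratio of 0.03. Fkbp5, a glucocorticoid-induced immunophilin that binds HSP90, had the highest ratio (2.61, 2.37 to 2.89) and was at 18.4, 48.2, 31.1 and 31.1 CPM. Hspa5, the HSP70 of the endoplasmic reticulum, was at 61.5 against 45.1 CPM (1.37, 1.27 to 1.47), and Dnajc21, a J-domain protein of ribosome assembly, at 87.9 against 66.1 CPM (1.33, 1.253 to 1.41). The lowest were Dnajb9, a J-domain protein of the endoplasmic reticulum, at 9.75 against 14.5 CPM (0.672, 0.576 to 0.782), Dnajc14 (0.784, 0.664 to 0.924) and Hspa13 (0.801, 0.686 to 0.934).

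Markers of other cells moved with the comparison in excitatory neurons, each list of 10 genes with 0 markers at 0 UMIs. Summed microglial markers were at 154 CPM after sleep deprivation and 211 after ad lib sleep, endothelial markers at 76.5 and 106, astrocyte markers at 906 and 1010, and oligodendrocyte markers at 206 and 191. Their part in the chaperone ratios was not tested.

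The shallow unnamed nuclei held more chaperone RNA per UMI than excitatory neurons. Over the 4 libraries, 28 of the 30 members measured in excitatory neurons were higher in the shallow nuclei, and the median ratio was 3.14 against 1.01 over all measured genes. Hsp90aa1 stood 6.15-fold, Hspa8 6.07-fold and Hsp90ab1 5.31-fold above the excitatory level, the chaperonin subunits 2.91-fold to 4.54-fold, and Hsf1 and Hsf2 at 0.746 and 0.814 of it. Within these nuclei Hsp90ab1 was at 1148, 2235, 1154 and 1145 CPM and Hsph1 at 155, 274, 168 and 185 CPM, so the sleep deprivation library was the high one for both. There, 31 of 32 measured members were higher after sleep deprivation than after ad lib sleep, 24 were past the fold against 29.8% of all genes, and the median log2 ratio was 0.56 against 0.04 over all genes. The part of such RNA in the ratios of named classes was not tested. Across the 30 members, the shallow-to-excitatory ratio and the sleep deprivation ratio had a Spearman rho of 0.17 and a Pearson r of 0.31 on log2 values, and across all 11998 genes both were 0.18. The median sleep deprivation ratio was 1.12 over the 28 members higher in shallow nuclei and 0.945 over the other 2, Hsf1 and Hsf2. Over all genes it was 0.999 for the 6105 higher in shallow nuclei and 0.958 for the rest. Both ratios share the excitatory counts.

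**Figure D3:**
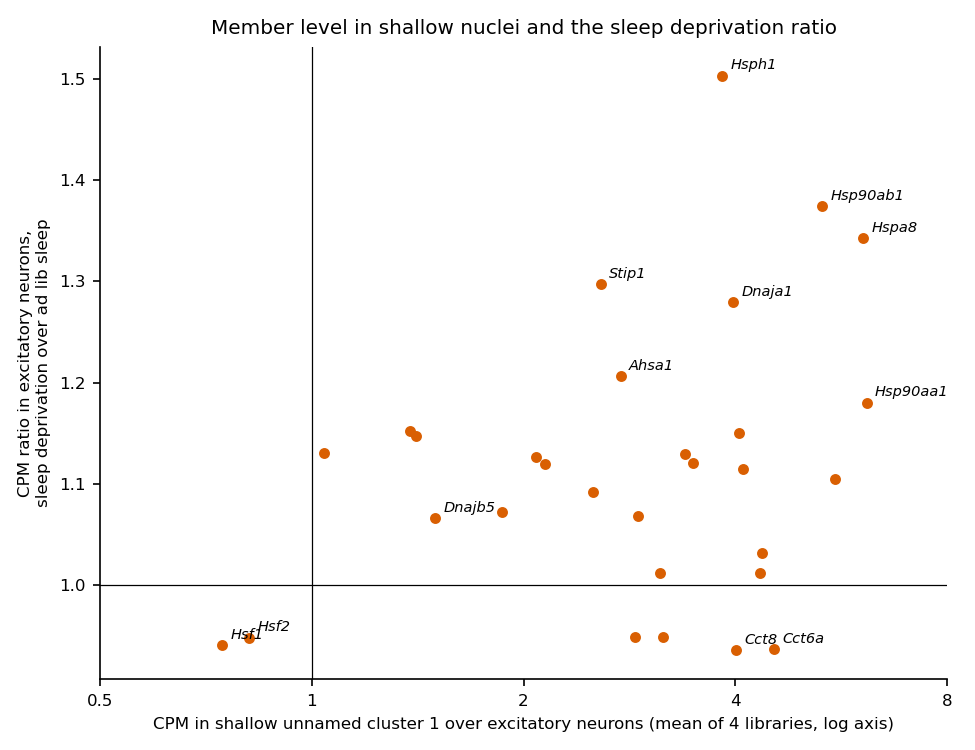
Each point is 1 of the 30 genes measured in excitatory neurons: its CPM in shallow nuclei over its CPM in excitatory neurons (log axis, mean of 4 libraries) against its ratio of sleep deprivation over ad lib sleep. Most points lie right of 1, and Cct8 and Cct6a combine a high shallow level with a ratio below 1.

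Genes that were high in the pooled excitatory neurons were then followed in subclasses of neurons. They were picked from that pool and the excitatory subclasses are its parts, so their direction there partly restates the choice. The 8 excitatory units were 7 named subclasses and cluster 9, which has no subclass name, and the 4 inhibitory subclasses were Pvalb, Sst, Vip, and Lamp5 with Sncg. Hsp90ab1 was higher after sleep deprivation in 8 of 8 excitatory and 4 of 4 inhibitory units, from 1.10 in layer 5/6 near-projecting (NP) neurons to 1.64 in layer 5 extratelencephalic (ET) neurons. Hspa8 was higher in 8 of 8 (1.14 in layer 5/6 NP to 1.54 in layer 5 ET) and 4 of 4 units (1.02 in Vip to 1.32 in Sst). Hsph1 was higher in 8 of 8 (1.10 in layer 5/6 NP to 1.78 in layer 4/5 intratelencephalic, IT, neurons) and 4 of 4 units (1.05 in Vip to 1.62 in Pvalb). Dnaja1 was higher in 8 of 8 (1.15 in layer 6b to 1.58 in layer 5 ET) and 4 of 4 units. Stip1 was higher in 8 of 8 excitatory but 2 of 4 inhibitory units, and Hsp90aa1 in 7 of 8 and 4 of 4 units, with 0.934 in layer 5/6 NP and 1.43 in layer 5 ET. Over all measured members, the median log2 ratio ran from 0.03 in layer 5/6 NP to 0.32 in layer 6b among excitatory units. Among inhibitory units it ran from 0.06 in Sst to 0.22 in Pvalb. In Sst, 5 members were past the fold upward and 7 downward, where 2043 and 2555 of all 12087 genes were. These units come from the same 2 libraries and are not replicates, and the difference between units was not tested.

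**Figure D4:**
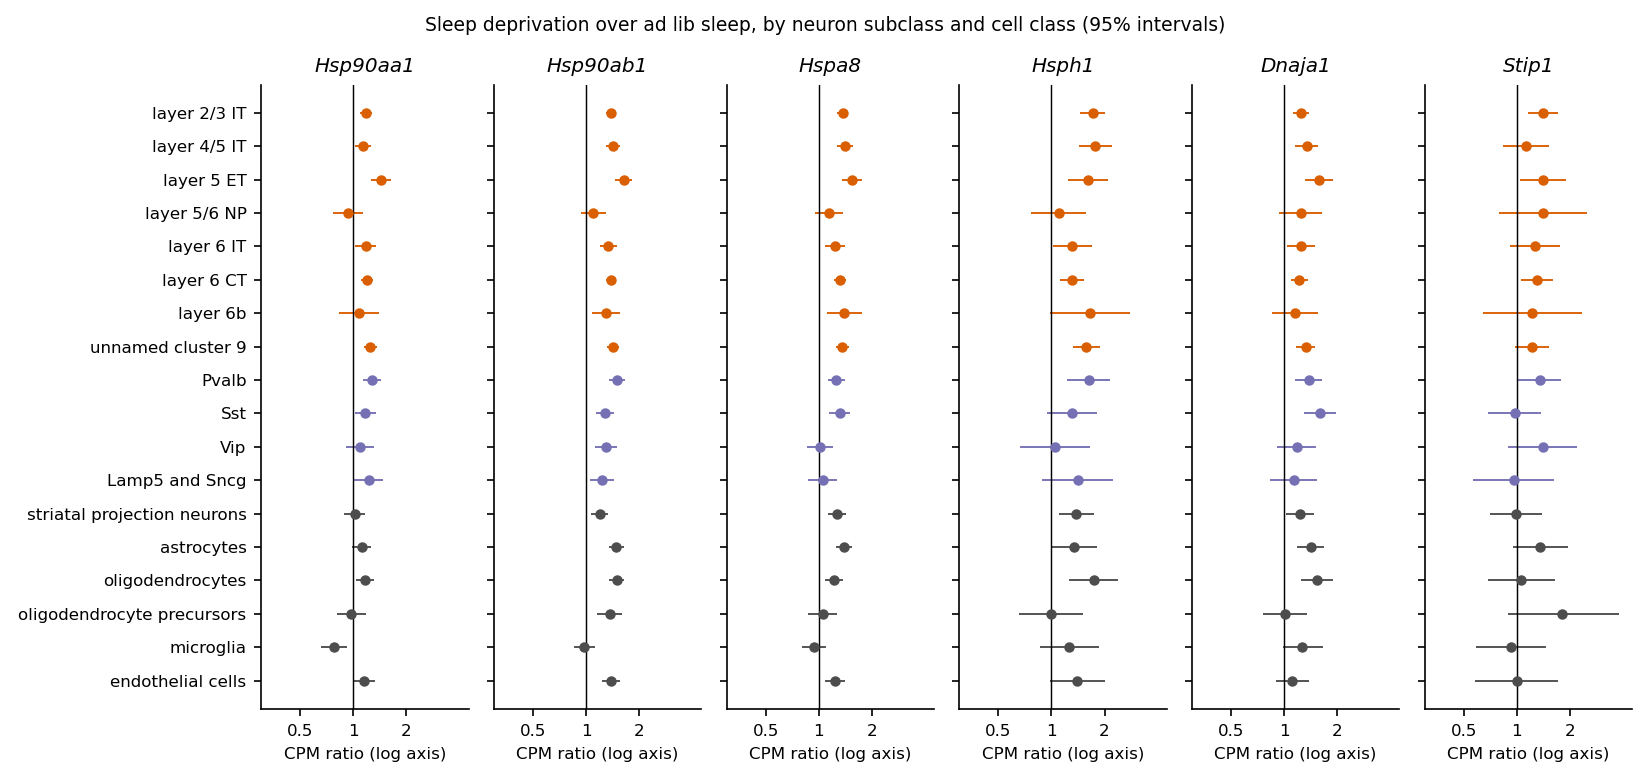
CPM ratio of sleep deprivation over ad lib sleep (log axis, 95% intervals for counting error) for 6 genes, by excitatory unit (orange), inhibitory subclass (purple) and other class (grey). Hsp90ab1, Hspa8, Hsph1 and Dnaja1 lie above 1 in all 12 neuronal units, and Hsp90aa1 lies below 1 in layer 5/6 NP neurons and in microglia. By level, Hsp90aa1 was also lower after sleep deprivation in pericytes and smooth muscle (328 against 377 CPM) and oligodendrocyte precursors (332 against 340). In endothelial cells it was higher, at 743.5 against 649.8 CPM. The 95% intervals of these levels overlapped within each class.

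In inhibitory neurons (1001 and 392 nuclei after ad lib sleep and sleep deprivation), 21 of 30 measured members were higher after sleep deprivation, and the median was 0.08 against -0.03 over all genes. Past the fold were 4 upward (8.2% of all genes) and 1 downward (15.4%), and 8 intervals lay above 1 (10.7% of all genes). TMM scaling gave 10.6% and 12.6% of all genes and the same 4 and 1 counts. Hsp90ab1 was at 285, 385, 315 and 283 CPM (1.35, 1.27 to 1.44) and Dnaja1 at 95.6, 129.5, 96.6 and 91.1 CPM (1.35, 1.21 to 1.51). For both, sleep deprivation was the high library, although Hsp90ab1 was 1.22-fold above wild-type SIK3 and so no longer past the fold with that reference. Hsph1 (1.39, 1.17 to 1.66; 1.20 against wild-type SIK3) and Ahsa1 (1.31, 1.04 to 1.64) were the other two. Among members with at least 100 UMIs over both libraries, the lowest ratios were those of Dnajb5 (0.731, 0.507 to 1.04), Hsf2 (0.833, 0.681 to 1.02), Dnajb2 (0.912, 0.716 to 1.16) and Cct2 (0.919, 0.743 to 1.13), whose intervals held 1.

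Glia had fewer UMIs, and larger shares of all genes passed the fold. In astrocytes (621 and 324 nuclei), 20 of 32 measured members were higher and the median was 0.14 against -0.02 over all genes. Of these, 11 were past the fold upward, where all genes gave 21%, and 3 downward, where all genes gave 23.6%. Hsp90ab1 was at 469, 696, 494 and 419 CPM (1.48, 1.34 to 1.64), with sleep deprivation as the high library. Cct3 (1.53, 1.10 to 2.12), Cct8 (1.45, 1.06 to 1.99) and Hspa4 (1.42, 1.13 to 1.79) also had intervals above 1. Among members with at least 100 UMIs the lowest were Cct2, Hspa4l, Cct6a and Cct4 (0.809 to 0.884), and the 3 past the fold downward were Hspb1, Bag3 and Dnaja4, on 5 to 14 UMIs after sleep deprivation. All 7 of these intervals held 1. In oligodendrocytes (590 and 256 nuclei), 19 of 31 members were higher, 9 past the fold upward (19.8% of all genes) and 5 downward (27.7%), with a median of 0.09 against -0.06. Hsp90ab1 was at 671, 999, 702 and 685 CPM (1.49, 1.35 to 1.64). Hsph1 was at 59.0, 102, 81.6 and 79.3 CPM (1.73, 1.26 to 2.39) and Dnaja1 at 146, 224, 189.9 and 163 CPM (1.53, 1.247 to 1.88). For these 2 genes ad lib sleep was the low library, below both AAV libraries. Cct5 (1.39, 0.948 to 2.04) and the lowest 4 with at least 100 UMIs, Cct8, Tcp1, Cct2 and Chordc1 (0.765 to 0.913), had intervals that held 1. With fewer UMIs, Hsf1 was at 0.603 (0.336 to 1.05), Hsf2 at 0.741 (0.405 to 1.32) and Hspa2 at 0.797 (0.400 to 1.54). Ahsa1, with 28 UMIs in each ad lib sleep sum, was 2.14-fold (1.32 to 3.54) higher in astrocytes and 2.04-fold (1.24 to 3.40) in oligodendrocytes. It lies under the 100 UMIs asked of a named gene and was named after its values were seen.

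In microglia (291 and 133 nuclei), 11 of 31 measured members were higher and the median was -0.08, against -0.13 over all genes. Hsp90aa1 was at 266 CPM after sleep deprivation and 341 after ad lib sleep (0.780, 0.659 to 0.922), and Hsp90ab1 at 461 and 472 (0.977, 0.854 to 1.12). Among members with at least 100 UMIs over both libraries, Hspd1 was the lowest (0.659, 0.462 to 0.938), followed by Cct6a, Hsp90aa1 and Dnaja2. The highest of these, Tcp1 (1.29), Dnaja1 (1.27), Hsph1 (1.26) and Cct8 (1.15), had intervals that held 1. Members with fewer UMIs reached further, from Hspb1 at 0.323 (0.0551 to 1.34) to Dnajb5 at 2.90 (1.28 to 7.40), the latter on 27 against 8 UMIs. Cct2 was at 0.612 (0.376 to 0.984). The difference between classes was not tested.

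The second comparison set SIK3 without exon 13 against wild-type SIK3, 2 libraries that share local administration, AAV8 and the hSyn promoter. In excitatory neurons the chaperone genes were spread on both sides of equality. Of 30 measured members, 15 were higher and 15 lower, 2 were past the fold upward and 0 downward, and the median log2 ratio was 0.01 against 0.04 over 12014 genes. Of all genes 5.89% passed the fold upward and 0.899% downward. Under TMM scaling, 3.4% and 1.97% of all genes passed, 8 of 30 members were higher and 1 was past the fold. The interval lay above 1 for 5 members (20.8% of all genes) and below 1 for 1 (8.91% of all genes), and it held 1 for 24. The counts of members past the fold or with an interval off 1 are too small to set apart from these shares. The share of all genes that were higher under TMM scaling is not given here, and their median log2 ratio was -0.03. The 8 of 30 is therefore not shown to be particular to the members.

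Dnaja4, a J-domain protein, was at 9.56, 10.7, 8.85 and 11.8 CPM, so the exon 13 deleted library was the highest and the wild-type library the lowest (ratio 1.33, 1.12 to 1.59). Ahsa1 was at 25.9 against 20.4 CPM (1.27, 1.13 to 1.42) and was higher in 8 of 8 excitatory units, from 1.05 in layer 6 IT to 1.69 in cluster 9. Dnajb5 was at 23.3, 24.8, 25.4 and 30.4 CPM, with exon 13 deleted as the high library (1.20, 1.08 to 1.33). Dnajb2 (1.16, 1.02 to 1.33) and Tcp1 (1.12, 1.03 to 1.22) were the other two with an interval above 1. Dnaja2 was the one below, at 136 against 149 CPM (0.913, 0.872 to 0.956), and higher in 1 of 8 excitatory units. Ahsa1 and Dnaja2 were picked from the pooled excitatory neurons, of which these units are parts, so their direction there partly restates the choice. Dnajb1 (0.888, 0.726 to 1.08), Hspe1 (0.917, 0.830 to 1.01) and Hspa2 (0.934, 0.729 to 1.19) were the other low ones, and their intervals held 1. The genes that led the sleep deprivation comparison were close to equal here: Hsp90ab1 at 1.02 (0.989 to 1.06), Hspa8 at 1.03 (0.984 to 1.07), Dnaja1 at 1.03 (0.968 to 1.09) and Hsph1 at 0.943 (0.874 to 1.02). The chaperonin subunits spanned 0.948 (Cct4) to 1.12 (Tcp1).

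Of 75 measured related genes, 50 were higher with SIK3 without exon 13, 3 past the fold upward and 0 downward, with a median of 0.07. Hspb3, a small heat shock protein best known from muscle, was at 10.2 against 5.31 CPM (1.91, 1.55 to 2.36), on 244 and 150 UMIs. Its level was 8.09 CPM after ad lib sleep and 6.54 after sleep deprivation, so the wild-type SIK3 library was the lowest. Bbs12, a chaperonin-like gene, was at 1.32 (1.04 to 1.67), and Pfdn6, a subunit of prefoldin, which hands clients to the chaperonin, at 1.31 (1.13 to 1.52). The lowest were Cdc37, which brings kinases to HSP90 (0.908, 0.807 to 1.02), the prefoldin subunit Pfdn5 (0.919, 0.850 to 0.993) and Dnajc12 (0.923, 0.753 to 1.13).

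Between classes, each of the 4 libraries gives 1 value per class. The libraries differ in treatment, so they repeat the class comparison but are not replicates of a single condition. Most chaperone genes were lower in excitatory neurons than in glia and vessels. Of 9 classes, endothelial cells had the highest mean CPM for 18 of 34 members, pericytes and smooth muscle for 6, oligodendrocytes for 5, inhibitory neurons for 2, and astrocytes, excitatory neurons and striatal projection neurons for 1 each. Vascular leptomeningeal fibroblasts, also a named class, are not in this order. Their summed Hsf1, Hsf2 and Bag3 was 109 CPM after ad lib sleep and 139 after sleep deprivation. The same sums were 86.1 and 50.6 in endothelial cells, and 71.4 and 85.6 in pericytes and smooth muscle. Excitatory neurons were lowest for 17 members. The shares of all genes with the same highest or lowest class are not given here, so these counts are not shown to be particular to chaperones. The top class lay above the class second by mean in all libraries without overlap for 7 members, and the top and second classes overlapped for 27. Classes further down were not part of this count and can overlap the top class. Among the 7, Hsp90aa1 was at 649.8 to 743 CPM in endothelial cells against 491 to 612 in oligodendrocytes, and Hspa8 at 656 to 942 against 402 to 611. Endothelial nuclei were shallow (medians of 1228.5 to 1913 UMIs), and the part of free RNA in this order was not tested.

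Dnajb2, a J-domain protein that is known from neurons and whose loss causes motor neuropathy, was highest in oligodendrocytes, at 166, 177, 169 and 154 CPM against a mean of 42.8 in endothelial cells, the next class. It was the highest class in 4 of 4 libraries. Tcp1 was highest in astrocytes (mean 115 CPM, 99.4 to 129.6 by library) and above the next class by mean, endothelial cells (75.5 to 93.6), in its range. Pericytes and smooth muscle (57.0 to 118 CPM) overlapped the astrocyte range, through the library of SIK3 without exon 13. Astrocytes were the highest class in 3 of 4 libraries. The other 7 chaperonin subunits were highest in endothelial cells (6 genes) or, for Cct3, in oligodendrocytes. Hspa4l was highest in inhibitory neurons (mean 94.5 CPM, 89.3 to 99.4) and there in Pvalb neurons (125, 129, 106 and 126 CPM), apart from the next subclass, Sst (74.0 to 98.2). Dnajb5, which can sequester class II histone deacetylases, was highest in excitatory neurons (mean 26.0 CPM), with a range that overlapped that of pericytes and smooth muscle. Hspb1 was at 120 to 180 CPM (mean 141) in pericytes and smooth muscle and 98.4 to 184 (mean 131) in endothelial cells, and those 2 did not differ beyond their spread. In excitatory neurons it averaged 1.71 CPM. Bag3 averaged 33.2 CPM in pericytes and smooth muscle, 24.4 in endothelial cells, 14.0 in astrocytes and 0.373 in excitatory neurons. Among inhibitory neurons it was highest in Pvalb neurons (3.59 to 7.76 CPM, on 7 to 20 UMIs), in 4 of 4 libraries. After sleep deprivation this order rested on 7 UMIs in Pvalb and 5 in Sst neurons. The levels there were 3.59 CPM (1.44 to 7.40) and 3.37 CPM (1.09 to 7.85), so the intervals overlapped. Dnajb1, the main J-domain partner of inducible HSP70, was highest among excitatory units in layer 2/3 IT neurons, at 10.9, 11.5, 12.7 and 10.2 CPM. Across excitatory units, 17 members were highest in layer 5/6 NP neurons, the shallowest of them, and 12 were lowest in layer 5 ET neurons, the deepest. The shares of all genes with the same highest or lowest unit are not given here, and the part of depth in this order was not tested.

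**Figure D5:**
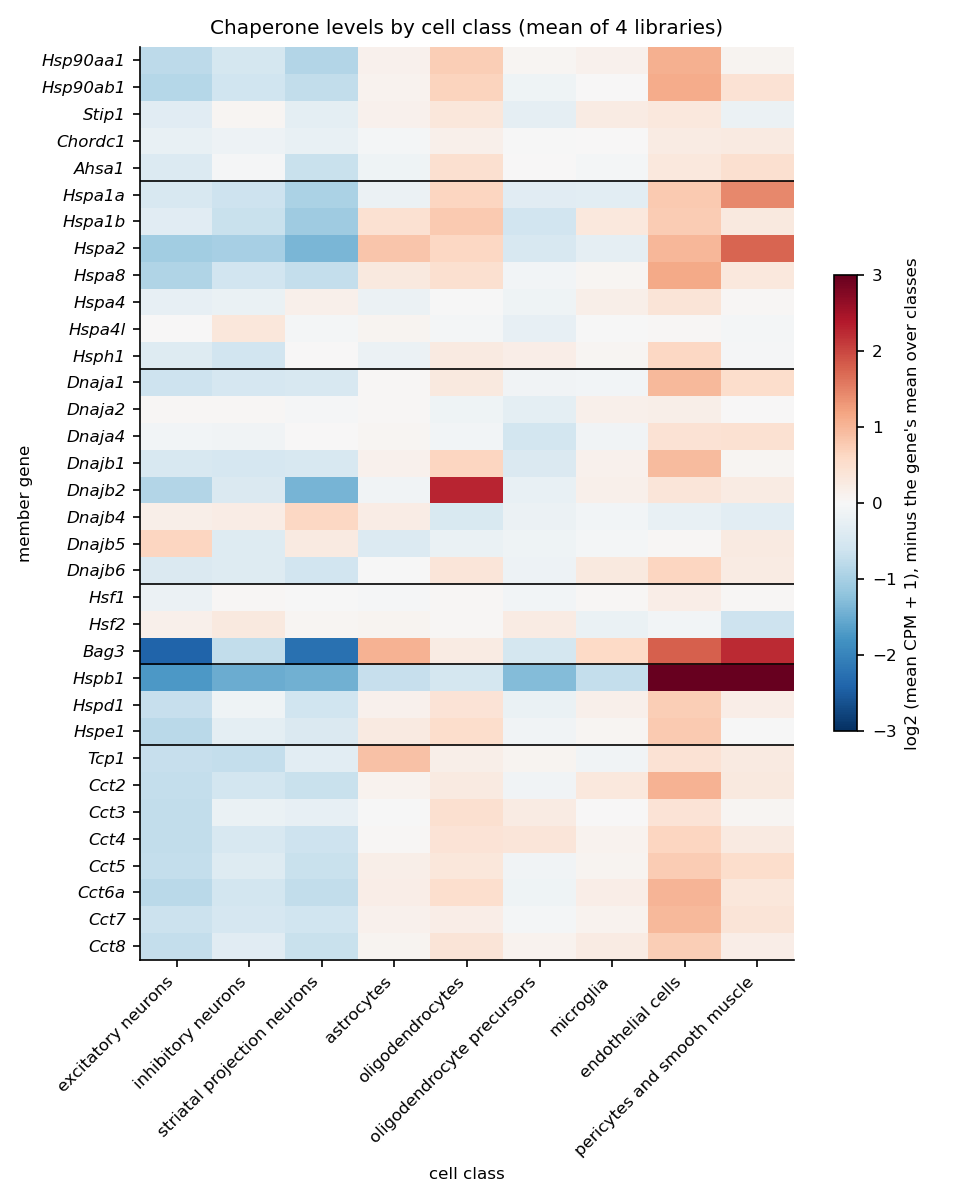
Level of each member by class, as log2 (mean CPM of 4 libraries + 1) minus the gene's mean over the 9 classes, so that red is above and blue below the gene's own mean (colours end at 3 and -3). Dnajb2 stands out in oligodendrocytes, Tcp1 in astrocytes, and Hspb1 and Bag3 in endothelial cells, pericytes and smooth muscle.

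Class differences were tested with edgeR's quasi-likelihood test on summed counts, with library as a block, in 4 against 4 sums. A gene was called at a Benjamini-Hochberg adjusted p of at most 0.05 over all genes. Scaling mattered, since excitatory neurons and glia differ in the make-up of their RNA. TMM scaling raised the median log2 difference over all genes by 0.13 against inhibitory neurons, 0.30 against astrocytes and 0.27 against oligodendrocytes relative to scaling by class totals. Against inhibitory neurons, 17 members were called, 4 higher and 13 lower in excitatory neurons, where 28.6% and 27.9% of all genes were called. With class totals, 2 were higher and 19 lower, and all genes split into 22.2% and 39.6%. Against astrocytes, 6 were higher and 18 lower (34.7% and 31.2% of all genes), or 1 and 22 with class totals (26% and 42.4%). Against oligodendrocytes, 5 were higher and 25 lower (36.2% and 29.6% of all genes), or 2 and 27 with class totals (28.5% and 38%).

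Under both scalings, 13, 18 and 25 members were called lower in excitatory neurons than in inhibitory neurons, astrocytes and oligodendrocytes. Dnajb5 was called higher against all 3 classes under both scalings, by 1.20 on the log2 scale against inhibitory neurons (SE 0.10, edgeR adjusted p = 3.77e-08) and 1.16 against oligodendrocytes (SE 0.17, edgeR adjusted p = 1.86e-07), in 4 of 4 libraries each. Hsph1 was higher than in inhibitory neurons by 0.31 (SE 0.05, edgeR adjusted p = 0.000144) and Dnajb4 higher than in oligodendrocytes by 0.91 (SE 0.12, edgeR adjusted p = 1.22e-08), also in 4 of 4 libraries and under both scalings. Dnajb2 differed by -2.97 from oligodendrocytes (SE 0.09, edgeR adjusted p = 2.87e-28). Bag3 differed by -4.92 from astrocytes (SE 0.34, edgeR adjusted p = 1.14e-12), and Tcp1 by -1.29 (SE 0.09, edgeR adjusted p = 2.58e-12). Hsp90ab1 differed by -1.24 and Hspa8 by -1.13 from oligodendrocytes, and by -0.12 and -0.22 from inhibitory neurons, all called and lower in excitatory neurons in 4 of 4 libraries. Against inhibitory neurons, the Hsp90ab1 call was lost with DESeq2, without the low-count filter, without the library block, after thinning and without the wild-type SIK3 library. The Hspa8 call was lost there without the block and after thinning, and the Hsph1 call without the block. Members called higher under TMM scaling but not with class totals numbered 2, 5 and 3 against the 3 classes.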

How the data were processed

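The authors counted UMIs per gene and nucleus with Cell Ranger 6.1.2 against the mm10 genome, as listed in the submitters' processing notes, and deposited whole-number counts of 3' libraries, not normalized; no cell annotation was used here. CPM of different genes were not compared with each other. The members and lists were chosen with earlier results of these data known. Nuclei with at least 500 genes and under 5% mitochondrial UMIs were kept. Scrublet's automatic threshold called 0, 0, 0 and 4 doublets, too few to have worked, so nuclei with the top scores were removed up to the rate set by loading (0.8% per 1000 barcodes; 696, 297, 377 and 307 nuclei). Leiden clusters (scanpy 1.11.5; 2000 variable genes, 30 components, centred per library) were named from marker lists by thresholds set after the data were seen.

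Every member was accounted for. Values of excitatory neurons in every library were given for the 2 or 3 members of highest CPM in each role group, but for Tcp1 alone among chaperonin subunits. The 4 highest and 4 lowest ratios per comparison (at least 100 UMIs) were named, in part without levels or with levels of 2 libraries only. Others named were picked after their values were seen. Intervals (95%) were exact Poisson for levels and exact conditional for ratios, covering counting error only. With 1 library per group, p-values came from class differences alone (edgeR 4.0.16 in R 4.3.3, TMM, filterByExpr), which measure the spread between these 4 libraries; the script was tested on simulated counts. Alternatives were DESeq2 1.42.0, no block, other scalings and filters, thinning to 2000 UMIs, equal subclass weights and leaving out libraries; scaling by class totals was chosen after seeing the data. Coordinates are from GENCODE vM21 by gene identifier, sequences from RefSeq GRCm38.p6.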

Additional observations from a re-analysis of the deposited data

How the results depend on the processing

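No paired analysis was possible because each group has 1 library, so the shared number pairs nothing. The 5 members past the fold in excitatory neurons after sleep deprivation became 8 when nuclei were thinned to 2000 UMIs and 3 with the wild-type SIK3 library as the reference. The 17 members called against inhibitory neurons became 11 with DESeq2, 9 with no library block and 6 after thinning. Leaving out each library in turn gave 14 to 16 calls against inhibitory neurons, 21 to 23 against astrocytes and 27 to 30 against oligodendrocytes. The shares of all genes under thinning, DESeq2, no block and left-out libraries are not given here. These changes in count are therefore not shown to be particular to the members. The cause of these shifts was not tested, apart from fewer UMIs under thinning and fewer libraries when one was left out. The median log2 ratio after sleep deprivation ranged over the alternatives from 0.06 to 0.21 in excitatory neurons and 0.01 to 0.13 in inhibitory neurons. It ranged from 0.13 to 0.44 in astrocytes and 0.04 to 0.21 in oligodendrocytes, and so stayed above 0 in these classes. Alternatives for other classes are not given here. Their main medians were -0.08 in microglia, -0.003 in endothelial cells (16 of 33 members higher) and 0.04 in striatal projection neurons. Oligodendrocyte precursors had 0.07, pericytes and smooth muscle 0.17, and vascular leptomeningeal fibroblasts 0.29. The median for SIK3 without exon 13 over wild-type SIK3 ranged from -0.06 to 0.03, so it has no settled sign. No called value changed sign in the alternatives run. Depth limits Bag3, Hspa1a, Hspa1b and Hspb1 in neurons, and single libraries cannot separate a group from its library.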
